A study of Mus musculus with 8 samples.

Results

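The wild-type baseline of the spine rested on 4 of the 8 libraries of the series, 2 from male and 2 from female wild-type (WT) mouse embryos at E18.5 (days of embryonic development), chosen by their genotype label. The remaining 4 libraries carry a knockout named Pax1-Enh, and no genotype comparison was made here. The labels give the tissue as whole spine and name no strain, litter or dissection limits. All 4 WT libraries came from frozen spines extracted with TRIzol and a stranded mRNA kit, which selects polyadenylated RNA. The labels do not say whether the replicates of a sex were separate embryos, so p-values measure the spread between these libraries, which may be technical. Values of single libraries are given below in the order male WT 1, male WT 2, female WT 1, female WT 2.

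The spine shortly before birth is a composite organ. Vertebral bodies and arches are cartilage models, laid down by cells of the sclerotome, that are being replaced by bone through the growth plate, while the intervertebral discs form from the notochord at their core and from sclerotome-derived annulus fibrosus around it. A whole spine also holds the spinal cord, dorsal root ganglia, vessels, blood-forming marrow and whatever muscle, tendon and fat stays attached, and the kidneys, adrenals, pancreas, lungs and liver lie close to it in the body cavity. In such bulk RNA, fewer cells of a type and less RNA per cell cannot be told apart.

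Total counts were 48021848, 47673931, 38862212 and 35181518. A count of 3, taken as the detection floor, was worth 0.0655 to 0.0807 CPM (counts scaled to a common library size, with TMM factors). The libraries did not resemble each other equally. Mitochondrial transcripts took 18.3% and 20.9% of the counts in the males and 5.55% and 7.27% in the females, with 95% Wilson intervals of at most 0.012 percentage points either way that cover counting error only. Median absolute log2 differences over 15152 genes with a mean of 1 CPM or more were 0.29 between the 2 males and 0.21 between the 2 females, and 0.39 to 0.61 for the 4 pairs across the sexes. The first principal component held 68% of the variance and separated the males (34.4 and 62.7) from the females (-43.9 and -53.3). Sex therefore coincides in these libraries with mitochondrial share, depth and, as described below, a trend with GC content, and these cannot be told apart.

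Of 27179 genes in the table, 14373 reached 1 CPM or more in all 4 libraries. These included 13780 annotated as protein coding and 322 as long non-coding RNA. At the other end, 5376 genes had no count in any WT library. A mean of 100 CPM was reached by 1615 genes and a mean of 1000 CPM by 83, of which 74 were nuclear. The 25 most abundant nuclear genes, of which 1 had no proper name, took 13.9%, 9.83%, 11.1% and 12.3% of the nuclear counts. Male WT 1 concentrated its counts most: 726 genes held 50% of its nuclear counts, against 957, 1052 and 915 in the other 3.

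The most abundant nuclear transcript was H19, an imprinted long non-coding RNA of the fetus (Entrez gene 14955, chromosome 7, 142575530 to 142578146 in GRCm38.p6, the mm10 build). Its level was 29414, 15224, 14592 and 25557 CPM, a mean of 21197 ± 7434 CPM (SD, n = 4). Its imprinted neighbour Igf2, which encodes the main fetal insulin-like growth factor (Entrez gene 16002, chromosome 7, 142650768 to 142666816), had 7237, 4392, 5908 and 6199 CPM. H19 was high in male WT 1 and female WT 2 and lower, by up to 2.02-fold, in the other 2 libraries, so that the sexes overlapped. Igf2 varied by 1.65-fold with male WT 2 lowest. The gene ranked 3 by mean CPM had no name in the tables used and is not described.

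**Figure D1:**
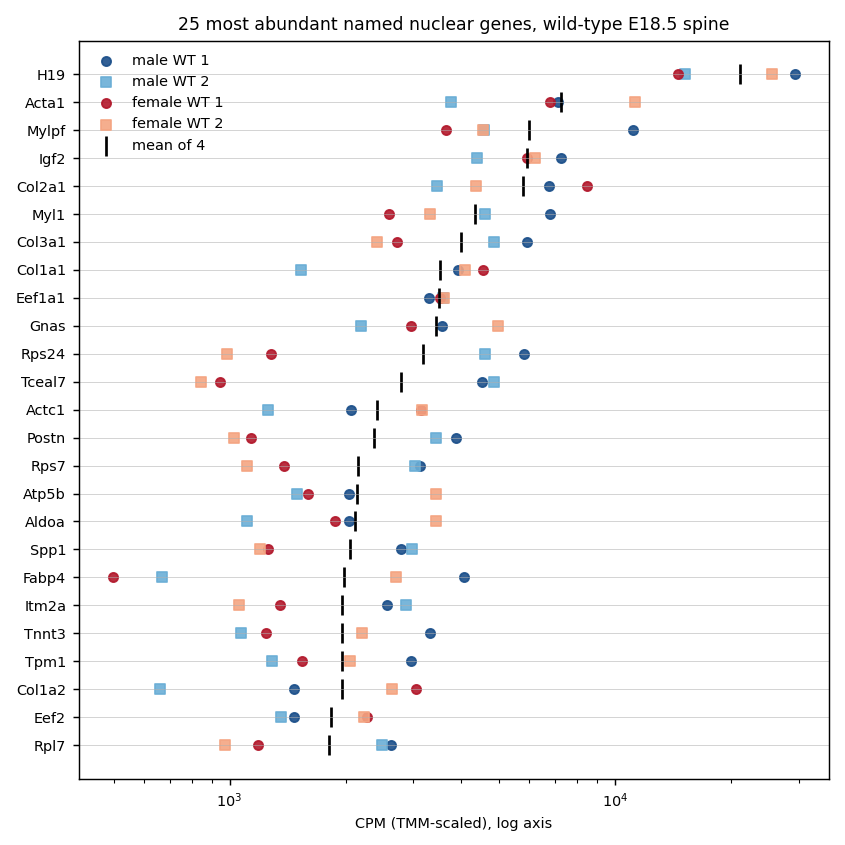
CPM (TMM-scaled, log axis) of the 25 named nuclear genes with the highest mean over the 4 wild-type libraries; each symbol is 1 library and the black bar is the mean. Eef1a1 lies within 3285 to 3612 CPM in all 4, while Fabp4 runs from 498 to 4060 CPM and Rps24 from 987 to 5799 CPM.

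Contractile genes of skeletal muscle came next. Skeletal actin, Acta1 (Entrez gene 11459, chromosome 8, 123891758 to 123894775), had 7130, 3752, 6778 and 11314 CPM, a mean of 7243 ± 3109 CPM (SD, n = 4). The fast regulatory light chain Mylpf had 11160, 4582, 3656 and 4555 CPM, and the essential light chain Myl1 had 6798, 4609, 2595 and 3315 CPM. Acta1 was highest in female WT 2, whereas the light chains were highest in male WT 1, and male WT 1 stood far above the others for Mylpf. Cardiac actin Actc1, which fetal skeletal muscle also makes, had 2071, 1261, 3142 and 3166 CPM, fast troponin T (Tnnt3) 3320, 1068, 1246 and 2205 CPM, and tropomyosin Tpm1 2950, 1286, 1540 and 2052 CPM.

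Matrix genes formed the other large block. Col2a1, the main collagen of cartilage (Entrez gene 12824, chromosome 15, 97975602 to 98004724), had 6755, 3458, 8481 and 4362 CPM. Col1a1, the main collagen of bone and tendon, had 3919, 1535, 4549 and 4084 CPM. Col3a1, a collagen of loose connective tissue, had 5928, 4867, 2717 and 2420 CPM. For Col3a1 both males lay above both females, while for Col1a1 and Col2a1 the lowest library was male WT 2 and the sexes overlapped. Periostin (Postn), a matrix protein of periosteum and other fibrous tissue, had 3869, 3429, 1139 and 1028 CPM, and osteopontin (Spp1), made by osteoblasts and osteoclasts, had 2780, 2975, 1261 and 1198 CPM.

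The remaining places among the 25 were held by genes of general cell function and by Fabp4. Eef1a1, an elongation factor of translation (Entrez gene 13627, chromosome 9, 78478453 to 78481724), had 3285, 3584, 3521 and 3612 CPM, a 1.10-fold range. Rps24, of the small ribosomal subunit, had 5799, 4612, 1280 and 987 CPM, and Rps7 and Rpl7 varied in the same way by 2.81-fold and 2.69-fold. Fabp4, the fatty acid binding protein of fat cells, had 4060, 667, 498 and 2708 CPM. Eef1a1 was thus nearly level across the libraries, Rps24 was high in both males, and Fabp4 was high in 1 library of each sex. Gnas, Tceal7, Atp5b, Aldoa, Itm2a, Col1a2 and Eef2 completed the set.

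CPM is not corrected for length, so genes were also ranked per kilobase of their median annotated transcript. By that measure H19 (9272 CPM per kb), Mylpf (8440), Rps24 (6037), Myl1 (5163) and Acta1 (5009) led. Of the 25 leading genes by CPM, 10 were also among the 25 leading genes per kilobase. Ribosomal protein genes, whose transcripts are short, held 3 places by CPM and 14 per kilobase. Genes high per kilobase that were not among the 25 by CPM included Rps27, Rpl36a, Rpl26, Rplp1, Rpl41, Rpl31, Rps25 and Atp5md (a subunit of ATP synthase).

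Promoter sequence is shown for 3 genes that stand for the 3 patterns of the baseline: an abundant tissue gene that varies moderately (Acta1), a gene far higher in 1 library than in the others (Ctrb1, a pancreatic chymotrypsinogen) and an abundant gene that is level (Eef1a1). The 150 bases before the annotated start are given 5′ to 3′ on the gene strand, from RefSeq on GRCm38.p6, and all 3 genes lie on the minus strand. Capitals mark matches, on either strand, to 3 motifs: the TATA box letters TATAAA, the CCAAT box and the GC box letters GGGCGG. Each motif was searched separately, whether or not it overlapped another. Acta1 spans chr8:123894776-123894925, Ctrb1 chr8:111691011-111691160 and Eef1a1 chr9:78481725-78481874.
Acta1: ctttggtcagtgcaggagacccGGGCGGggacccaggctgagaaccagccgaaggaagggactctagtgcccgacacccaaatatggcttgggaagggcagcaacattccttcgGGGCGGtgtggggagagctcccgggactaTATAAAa
Ctrb1: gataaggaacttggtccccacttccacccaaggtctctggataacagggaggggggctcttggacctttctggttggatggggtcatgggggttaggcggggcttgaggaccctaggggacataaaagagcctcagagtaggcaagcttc
Eef1a1: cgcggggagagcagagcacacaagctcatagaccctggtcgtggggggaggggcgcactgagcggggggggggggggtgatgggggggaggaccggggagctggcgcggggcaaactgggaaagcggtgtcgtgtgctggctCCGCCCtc

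The Acta1 stretch held TATAAA, beginning 7 bases before the annotated start, and also 2 copies of GGGCGG. The Eef1a1 stretch held GGGCGG on the other strand, and the Ctrb1 stretch held none of the 3. Over the window from 250 bases before to 50 after the start, TATAAA was present in 14.2% of all 27025 promoters of the table and GGGCGG in 35.9%. Among genes at 1 CPM or more in all 4 libraries with a promoter in the table (11213 of 14373), these shares were 7.19% and 64.2%. Among the 100 most abundant nuclear genes (70 with a promoter) they were 25.7% and 40%. Genes with a range over 4-fold between libraries held TATAAA in 17.8% and GGGCGG in 36.9%, and genes below a 1.5-fold range in 5.60% and 67.2%. CCAAT varied less between these sets, from 35.1% to 41.4%. Most TATAAA matches lay outside the stretch from 45 to 16 bases before the start. On the gene strand there, TATAAA was present in 2.36% of all promoters and in 1.26% of those of genes at 1 CPM in all 4 libraries. For the 100 most abundant nuclear genes that share was 4.29%. A match is a description of letters and not of binding.

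Lists of marker genes were then read for each tissue. Summed CPM of a list depends on which genes it holds and how long they are, so the sums are compared between libraries only. The background for these comparisons is that 963 of the 15152 genes (6.36%) had more than a 4-fold range between the highest and the lowest WT library, that the median range was 1.71-fold, and that both males lay above both females in 34.3% of genes and both females above both males in 34.3%.

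**Figure D2:**
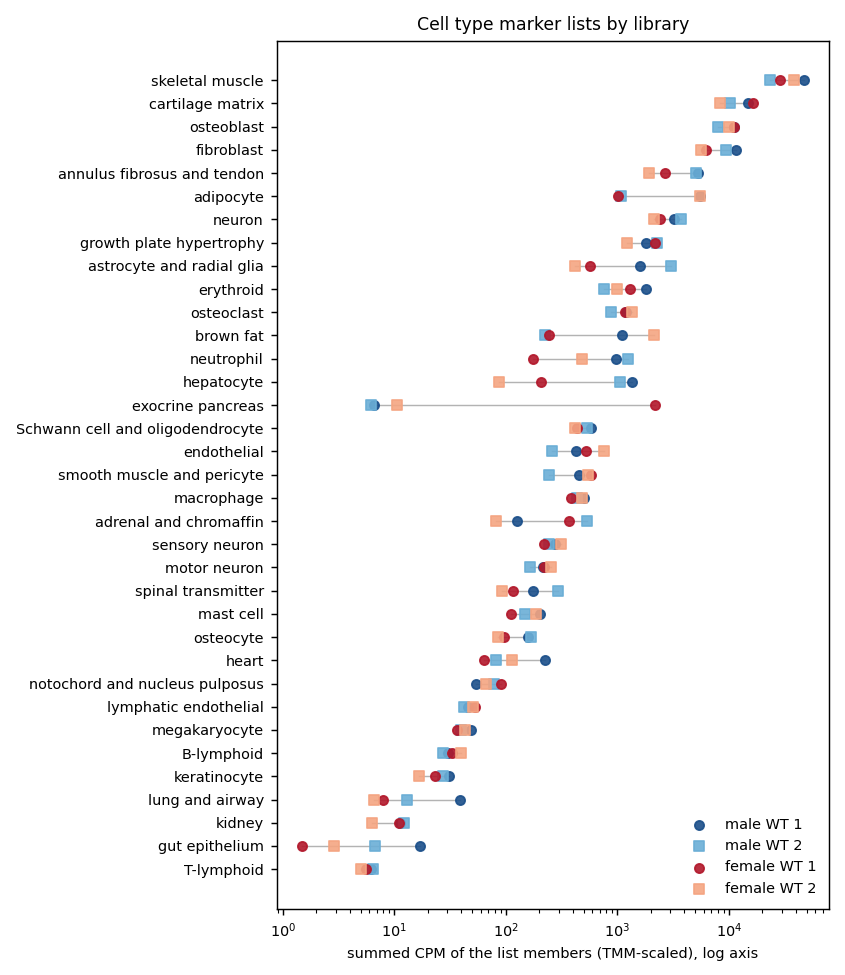
Summed CPM (TMM-scaled, log axis) of 35 cell type marker lists in each wild-type library; each symbol is 1 library and the line joins the lowest to the highest. Exocrine pancreas runs from 6.22 to 2195 CPM with only female WT 1 high, whereas macrophage runs from 387 to 501 CPM.

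Cartilage genes were present in every library. All 20 cartilage matrix genes reached 1 CPM in all 4 libraries, and the list summed to 14866, 10376, 16453 and 8393 CPM. Col11a1, a minor fibrillar collagen of cartilage, had 1970, 1861, 1187 and 515 CPM. Col9a1 and Col9a3, chains of the collagen on the fibril surface, had 1028, 898, 1107 and 503 CPM, and 637, 497, 901 and 463 CPM. Female WT 2 was lowest for each of these 3 genes. The widest range in the list was that of Epyc, a small proteoglycan of cartilage, with 380, 356, 176 and 62.5 CPM, and it was the only 1 of the 20 past 4-fold.

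The growth plate was also represented. Col10a1, the collagen of hypertrophic chondrocytes, had 993, 1262, 1477 and 710 CPM. Mmp13, a collagenase of the hypertrophic zone and osteoblasts, had 356, 451, 237 and 163 CPM. Mef2c, a transcription factor of hypertrophy that muscle also makes, had 296, 357, 228 and 194 CPM, and Pth1r, the receptor for parathyroid hormone-related protein, had 88.8, 90.7, 141 and 108 CPM. All 6 members of the list passed 1 CPM in every library and 0 passed a 4-fold range. Among chondrocyte regulators, Sox9, the master factor of cartilage, had 46.5, 53.7, 57.0 and 34.1 CPM, and Fgfr3, a brake on chondrocyte division, had 62.6, 78.7, 96.1 and 56.9 CPM.

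Bone was represented by all 14 osteoblast genes in all 4 libraries, with sums of 11074, 7984, 11134 and 10084 CPM. Besides Col1a1, Col1a2 had 1472, 658, 3057 and 2637 CPM, and Sparc, a protein of bone matrix, had 1187, 787, 1476 and 1584 CPM. Both genes were higher in both females than in either male. The widest range was that of osteomodulin (Omd), with 659, 1006, 104 and 105 CPM, and Omd and Col1a2 were the 2 of 14 past 4-fold. In the osteocyte list, Dmp1, a matrix protein of mineralising bone, had 101, 95.7, 62.0 and 55.8 CPM, Phex, a peptidase of phosphate balance, 44.1, 63.3, 27.4 and 21.3 CPM, the Wnt inhibitor Sost 5.89, 3.94, 4.37 and 4.84 CPM and Mepe 5.22, 4.05, 2.45 and 2.56 CPM. Osteoclast genes, 13 of 13 at 1 CPM or more in every library, had a narrower spread, with sums of 1205, 885, 1165 and 1357 CPM and a median range of 1.60-fold. Ctsk, the collagen-degrading protease of the osteoclast, had 440, 320, 345 and 457 CPM, and the phosphatase Acp5 had 272, 208, 235 and 312 CPM.

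Annulus fibrosus and tendon genes had a median range of 2.12-fold, close to the 2.20-fold of the osteoblast list and below the 2.43-fold of cartilage matrix. They summed to 5281, 5140, 2691 and 1940 CPM, and both males lay above both females for 7 of the 12, or for 4 of 12 when scaled by total counts. The small proteoglycans were widest: Ogn had 1611, 2190, 506 and 374 CPM, Lum 1081, 1150, 348 and 198 CPM and Kera 67.0, 33.9, 18.9 and 8.58 CPM. Decorin (Dcn) had 865, 585, 358 and 278 CPM. Ogn, Lum and Kera were the 3 of 12 past 4-fold. Fibromodulin (Fmod), in the same list, had 419, 282, 409 and 329 CPM and did not separate the sexes.

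Notochord and nucleus pulposus genes, the core of the disc, were low but present. Brachyury (T), the defining notochord factor, had 13.7, 22.5, 18.6 and 17.1 CPM. The keratins Krt8 and Krt19, which nucleus pulposus and epithelia share, had 16.7, 26.5, 34.9 and 23.3 CPM, and 14.6, 20.6, 26.4 and 19.4 CPM. Foxa2, a factor of notochord and floor plate, had 3.68, 4.28, 3.67 and 2.72 CPM. None of the 6 members with a mean of 1 CPM passed a 4-fold range, and male WT 1 was lowest for T, Krt8 and Krt19. Noto, a gene of the early node, had 0 counts in every library, which allows a level of up to 0.0807 CPM.

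Sclerotome and somite factors belonged to the more constant groups, with 0 of 10 past 4-fold and a median range of 1.55-fold. Pax1 itself, a paired-box factor of sclerotome and disc (Entrez gene 18503, chromosome 2, 147361930 to 147375049), had 19.9, 16.7, 26.2 and 18.0 CPM. Its mean was 20.2 ± 4.23 CPM (SD, n = 4) or 7.65 CPM per kb. The levels of the 2 sexes overlapped, and the edgeR adjusted p for sex was 0.431. Its close relative Pax9 had 2.72, 2.40, 4.37 and 3.98 CPM, or 0.802 CPM per kb. Meox2 and Meox1, homeobox factors of the somite, had 64.4, 71.9, 51.2 and 47.0 CPM, and 20.2, 14.0, 25.3 and 25 CPM. Twist1 had 33.2, 32.7, 28.1 and 22.6 CPM, and Foxc1 had 33.0, 40.2, 23.2 and 14.6 CPM, the widest range of the list at 2.75-fold.

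Genes around Pax1 on chromosome 2 had a median range of 1.79-fold. Xrn2, a nuclear exonuclease, had 53.4, 55.1, 52.0 and 54.3 CPM and was among the 10 most constant genes of the baseline. Thbd (thrombomodulin), an endothelial surface protein, had 34.3, 35.2, 32.3 and 31.5 CPM, and Cd93, also endothelial, had 86.9, 49.6, 88.5 and 140 CPM. Kiz, a centrosomal protein, had 32.3, 29.0, 17.3 and 20.2 CPM, and Ralgapa2, a subunit of a Ral GTPase activator, had 15.7, 14.2, 14.3 and 34.4 CPM. Cd93 was highest in female WT 2, as were the endothelial genes below. The developmental factors of the region were lower. Nkx2-2, of the ventral neural tube, had 2.60, 4.0, 1.94 and 1.10 CPM, Insm1, a factor of neuroendocrine cells, had 1.92, 1.65, 2.36 and 1.34 CPM and the somatostatin receptor Sstr4 had 0.313, 0.565, 1.29 and 1.02 CPM. Nkx2-4 had 0 counts in 3 libraries and 0.0269 CPM in female WT 2, which is below the floor.

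Hox genes, which mark position along the body axis, were detected from the anterior to the posterior groups. Groups 11 to 13 were low, with 5 of 9 genes at a mean of 1 CPM or more. Hoxb8 was the highest per kilobase of the trunk groups at 50.8 CPM per kb, with levels of 118, 133, 77.2 and 55.1 CPM. Hoxb9 had 95, 115, 64.0 and 47.2 CPM, or 33.2 CPM per kb. Hoxc8 had 55.7, 57.8, 40.5 and 22.2 CPM and Hoxb3 had 33.4, 39.1, 22 and 16.1 CPM. For each of these 4 genes both males were above both females, with male WT 2 highest and female WT 2 lowest. Hoxc10, of the lumbar region, had 25.1, 23.2, 24.2 and 25.8 CPM, a range of 1.11-fold.

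Posterior groups 11 to 13 went the other way. Their sums were 4.14, 8.03, 13.7 and 13.8 CPM, and both females lay above both males for 5 of the 5 members with a mean of 1 CPM or more. Hoxa11 had 1.15, 2.22, 3.71 and 2.64 CPM, Hoxd11 1.92, 1.56, 2.25 and 2.07 CPM, and Hoxc12 0.433, 1.49, 2.12 and 2.66 CPM. Hoxc13, a gene of the tail end, had 0, 1.74, 2.75 and 3.01 CPM, and the 0 of male WT 1 allows up to 0.0721 CPM. Male WT 1 was lowest for 3 of these 4 genes, all but Hoxd11. Anterior groups 1 to 5 summed to 150, 182, 117 and 120 CPM, groups 6 to 8 to 274, 300, 193 and 139 CPM, and groups 9 and 10 to 184, 210, 144 and 124 CPM. How far along the tail each spine was cut is not given in the labels, and its part in these values was not tested.

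**Figure D3:**
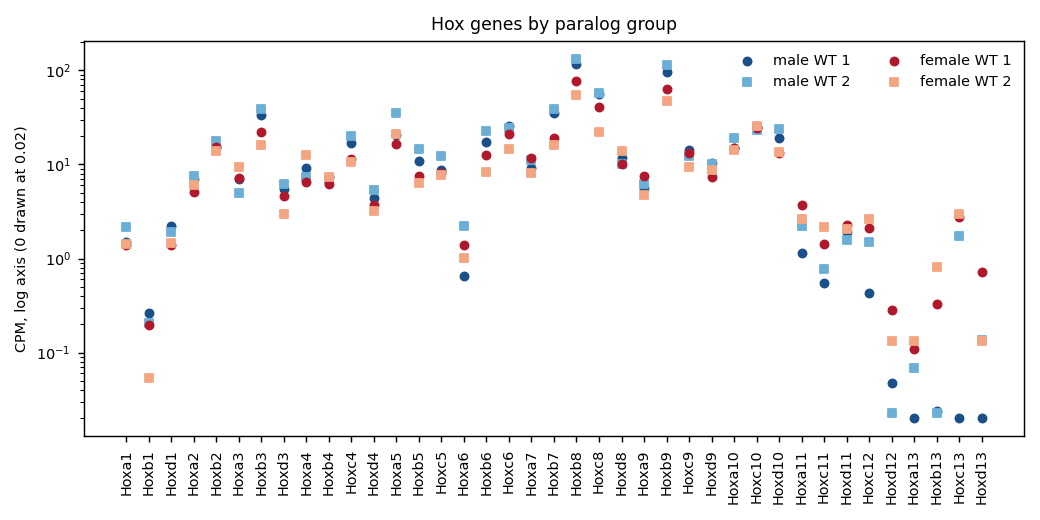
CPM (TMM-scaled, log axis, 0 drawn at 0.02) of each Hox gene in order of paralog group; each symbol is 1 wild-type library. Hoxb8 and Hoxb9 reach 133 and 115 CPM in male WT 2, and groups 11 to 13 stay at or below 3.71 CPM, with the males lower than the females in most.

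Skeletal muscle genes summed to 47609, 23286, 28804 and 38594 CPM, with male WT 1 highest for 19 of the 30 members. The myosin heavy chains of embryonic and neonatal muscle, Myh3 and Myh8, had 1512, 975, 1026 and 673 CPM, and 1433, 327, 682 and 865 CPM. The adult fast chain Myh1 had the widest range of the list, with 68.8, 32.5, 5.92 and 27.6 CPM. Myh1, Myh2, Myh4, Myh8 and the calcium pump Atp2a1 were the 5 of 30 past 4-fold. The largest sarcomere genes behaved otherwise: titin (Ttn) had 1378, 818, 441 and 350 CPM and nebulin (Neb) had 594, 660, 231 and 182 CPM, with both males above both females.

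Regulators of muscle formation ran opposite to these. Myogenin (Myog), the factor of muscle differentiation, had 50.9, 29.6, 120 and 81.2 CPM. Myomaker (Mymk), a fusion protein of myoblasts, had 37.2, 19.7, 80.2 and 71.7 CPM, and Myod1 had 13.3, 7.40, 34.1 and 28.8 CPM. Pax7, the factor of muscle stem cells, had 2.48, 1.31, 8.97 and 8.10 CPM, the widest range of the list at 6.64-fold. Both females lay above both males for these 4, while Myf6 had 34.5, 31.6, 24.6 and 24.6 CPM and Myf5 had 6.97, 6.99, 5.74 and 5.78 CPM. At the neuromuscular junction, the fetal acetylcholine receptor subunit Chrng had 20.6, 9.07, 40.8 and 34.4 CPM and Chrna1, present in fetal and adult receptors, had 21.7, 14.6, 30.5 and 25.3 CPM. The adult subunit Chrne, which replaces Chrng after birth, had 0.289, 0.271, 0.175 and 0.188 CPM. Lrp4, the agrin receptor, had 37.6, 40.6, 36.8 and 31.7 CPM.

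Nervous tissue was present throughout. Neuron genes, 12 of 12 at 1 CPM or more in every library, summed to 3259, 3698, 2397 and 2145 CPM. Stmn2, a microtubule regulator of growing axons, had 636, 755, 416 and 382 CPM, and neuronal tubulin Tubb3 had 457, 495, 542 and 427 CPM. The neurofilament Nefl had 366, 411, 308 and 325 CPM and Map2, of dendrites, 393, 573, 190 and 121 CPM. Both males lay above both females for 11 of the 12, or for 6 of 12 when scaled by total counts, with Tubb3 the exception.

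Of the 7 motor neuron genes, 4 had a mean of 1 CPM or more, and Mnx1, Chat and Lhx3 did not. The leading members were Prph (174, 115, 188 and 231 CPM), which sensory neurons also make, and Isl1 (19.8, 17.6, 13.9 and 11.4 CPM). The choline transporter Slc5a7 had 11.9, 21.2, 9.19 and 7.07 CPM and the vesicular acetylcholine transporter Slc18a3 had 8.06, 8.32, 8.58 and 6.27 CPM. Excitatory and inhibitory spinal neurons were marked by the glutamate transporter Slc17a6 (92.0, 172, 50.4 and 43.4 CPM) and the GABA-synthesis enzyme Gad1 (38.5, 60.1, 25.4 and 17.4 CPM). For Slc17a6 and Gad1 male WT 2 was highest and female WT 2 lowest. Sensory neuron genes showed another order. Avil had 31.3, 17.0, 33.2 and 54.9 CPM and the ATP receptor P2rx3 had 30.5, 20.1, 31.1 and 47.8 CPM. For both, male WT 2 was lowest and female WT 2 highest, while the sodium channel Scn9a, at 40, 53.8, 16.8 and 17.1 CPM, followed the spinal genes. Trpv1, the capsaicin receptor, was low at 1.06, 0.475, 1.35 and 2.56 CPM and had the widest range of the sensory list at 4.98-fold.

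The median range was 3.24-fold for the radial glia and astrocyte list and 2.08-fold for the Schwann cell and oligodendrocyte list, beside 1.70-fold for the neuron list, 2.63-fold for sensory neurons and 3.69-fold for spinal transmitter genes. The radial glia and astrocyte list summed to 1606, 3054, 565 and 421 CPM. Fabp7, a lipid binding protein of radial glia, had 1224, 2412, 334 and 226 CPM, and the astrocyte water channel Aqp4 had 93.9, 172, 30.3 and 24.8 CPM. The glutamate transporters Slc1a3 and Slc1a2 had 113, 174, 84.4 and 64.4 CPM, and 74.1, 141, 48.5 and 37.2 CPM. Male WT 2 was highest and female WT 2 lowest for all 4. Of the myelin-related genes, Pmp22 had 252, 192, 197 and 179 CPM, Cnp 69.9, 72.7, 65.7 and 62.7 CPM and Mbp 95.2, 103, 47.1 and 60.8 CPM. Erbb3, the neuregulin receptor of Schwann cells, had 4.59, 3.64, 13.1 and 9.52 CPM.

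Marrow and blood were represented unevenly. Globin genes have near-identical copies and how reads matching several loci were counted is not given in the sources used here, which makes their levels uncertain: Hba-a2 had 523, 295, 712 and 500 CPM and Hbb-bs had 985, 220, 315 and 219 CPM, while Hba-a1 had 3.68, 2.49, 7.32 and 6.91 CPM. Alas2, the heme-synthesis enzyme of red cells, had 91.5, 36.9, 98.8 and 65.7 CPM, and the transferrin receptor Tfrc had 148, 180, 134 and 198 CPM. The embryonic globin Hbb-bh1 was at or below 0.109 CPM in all 4 libraries. Hbb-bt and Ahsp were not among the genes analysed here.

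Among white cells, the neutrophil genes S100a9 and S100a8 had 462, 663, 77.9 and 244 CPM, and 428, 528, 50.7 and 145 CPM. The later granule genes Ngp (25.1, 16.6, 16.1 and 27.7 CPM) and Mmp8 (27.8, 24.3, 6.90 and 20.3 CPM) did not separate the sexes in the first case and had female WT 1 lowest in both. Macrophage genes had a median range of 1.80-fold and sums of 501, 432, 387 and 488 CPM. Lyz2, lysozyme of myeloid cells, had 144, 152, 84.1 and 134 CPM, Mrc1, the mannose receptor, 101, 93.5, 55.2 and 58.0 CPM, and Csf1r, the receptor for macrophage growth factor, 68.7, 50, 84.6 and 91.8 CPM. Of the mast cell proteases, Cpa3 had 115, 111, 42.7 and 55.8 CPM, Tpsb2 35.8, 16.3, 32.6 and 66.3 CPM, Cma1 33.5, 15.9, 29.3 and 46.2 CPM and Mcpt4 14.4, 5.95, 6.07 and 15.8 CPM. Only Cpa3 of these 4 had both males above both females, and the other 3 were highest in female WT 2. Lymphoid genes were low. Of 11 B-lymphoid genes 2 had a mean of 1 CPM or more, Ebf1 (22.9, 20.6, 27.5 and 33.6 CPM), which mesenchymal cells also make, and Cd79b (2.48, 1.85, 1.92 and 1.61 CPM). Of 6 T-lymphoid genes 2 did so, Lck and Cd4. The platelet chemokine Pf4 had 37.6, 29.2, 26.5 and 34.5 CPM.

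Endothelial genes summed to 428, 258, 524 and 757 CPM, and both females lay above both males for 9 of 10, also when scaled by total counts. Pecam1 had 94.8, 42.4, 108 and 158 CPM, the junction protein Cdh5 had 62.4, 25.5, 95.8 and 144 CPM, and the growth factor receptor Kdr had 42.9, 24.3, 51.5 and 91.0 CPM. Egfl7, a secreted protein of endothelium, had 46.9, 33.7, 51.8 and 64.7 CPM. Male WT 2 was lowest and female WT 2 highest for all 4, and none of the 10 passed the sex test below, which 10.8% of all tested genes passed. The lymphatic receptor Lyve1, which macrophages also carry, had 32.2, 31.6, 29.6 and 29.1 CPM. The other 2 lymphatic genes were higher in both females, with Flt4 at 9.67, 6.65, 16.3 and 17.4 CPM and Prox1 at 3.82, 4.34, 7.36 and 4.76 CPM, and Flt4 passed the sex test (edgeR adjusted p = 0.0482) before the GC correction described below and not after it.

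Most fat genes divided the libraries in a way that sex did not. Ucp1, the uncoupling protein of brown fat (Entrez gene 22227, chromosome 8, 83290348 to 83298456), had 409, 48.6, 30.8 and 863 CPM. Cidea, a lipid droplet protein, had 308, 37.9, 77.7 and 652 CPM. Cox8b and Cox7a1, respiratory chain isoforms of muscle and brown fat, had 211, 54.2, 66.0 and 337 CPM, and 125, 31.8, 39.4 and 224 CPM. Male WT 1 and female WT 2 were high for each of these and male WT 2 and female WT 1 low, with no overlap between the 2 pairs. Of the 8 members of the brown fat list, 4 were past 4-fold. Both females lay above both males for 2 of the 8, and both males above both females for 1. General adipocyte genes followed: 13 of the 14 with a mean of 1 CPM or more were past 4-fold, the median range was 9.42-fold, and the list summed to 5474, 1091, 1008 and 5544 CPM. Lipoprotein lipase (Lpl) had 497, 264, 77.3 and 427 CPM, the triglyceride lipase Pnpla2 294, 35.2, 111 and 726 CPM and adiponectin (Adipoq) 164, 39.3, 58.7 and 317 CPM. Perilipin 1 (Plin1), the coat of the lipid droplet, had the widest range of the list with 45, 4.48, 29.0 and 187 CPM.

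Markers of organs next to the spine were present in some libraries and close to the floor in others. Exocrine pancreas genes reached 2195 CPM in female WT 1 and 6.56, 6.22 and 10.6 CPM in the other libraries. Pnliprp1, a pancreatic lipase-related protein, had 0.168, 0.226, 707 and 1.53 CPM, and Ctrb1, whose promoter is printed above (Entrez gene 66473, chromosome 8, 111686510 to 111691010), had 0.0240, 0, 459 and 0.861 CPM. The elastase Cela2a had 0, 0.0452, 192 and 0.323 CPM and colipase (Clps) 0.0962, 0, 188 and 0.915 CPM. Female WT 2 was the next highest for these 4 enzymes and the males lay at 0.226 CPM or below. Of 12 list members, 10 were past 4-fold, Pnlip was at 0.807 to 1.49 CPM in all 4 libraries, and Ctrc had no count in any.

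Adrenal cortex genes were high in male WT 2 and female WT 1. The steroidogenic enzymes Cyp11b1 (0.0481, 95.9, 47.6 and 0.0807 CPM) and Cyp21a1 (0.0481, 101, 49.0 and 0.215 CPM) were at 0.215 CPM or below in the other 2 libraries. Star, which carries cholesterol into the mitochondrion, had 3.27, 106, 52.9 and 2.77 CPM. Chga, a granule protein of chromaffin cells and neurons, had 76.9, 73.7, 71.1 and 46.8 CPM and did not follow them. Cyp17a1, of the same pathway, stayed at or below 0.113 CPM in all 4.

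Liver genes separated the sexes. Albumin (Alb) had 816, 638, 68.5 and 18.7 CPM, fetuin (Ahsg) 164, 84.6, 17.9 and 7.53 CPM and alpha-fetoprotein (Afp) 96.7, 152, 33.8 and 5.62 CPM. Both males lay above both females for 10 of the 10 list members, also when scaled by total counts, and 9 of 10 were past 4-fold. Transferrin (Trf), which is also made by other tissues, was the member below 4-fold at 142, 99.8, 63.0 and 48.8 CPM. The lung surfactant gene Sftpc had 23.0, 1.63, 0.153 and 0.188 CPM and the fatty acid binding protein Fabp1, of liver and intestine, 14.9, 5.81, 0.371 and 0.511 CPM, both highest in male WT 1. Of 6 heart genes, 4 had a mean of 1 CPM or more (Myl2, Myl7, Myh6 and Tnni3), and all 4 were highest in male WT 1. A 4-fold range was passed by 2 of them, with Tnni3 the widest. Myl2, which slow skeletal muscle shares, had 199, 69.9, 58.6 and 106 CPM, while the cardiac factor Nkx2-5 was at 0 to 0.0962 CPM. Kidney genes were near the floor apart from Pax2 (10.6, 11.3, 9.63 and 5.92 CPM), which spinal neurons also make, and Umod had no count. Epidermal genes were low, with Krt10 at 12.3, 11.6, 6.49 and 5.16 CPM and Krt5 at 0.577, 0.113, 0.328 and 0.215 CPM. Whether tissue from these organs was taken with the spines was not tested.

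Among signalling genes the median range was 2.23-fold for hedgehog, 2.05-fold for BMP and TGF-beta and 1.58-fold for Wnt, beside 1.71-fold for all genes. None of the 9 hedgehog, 15 BMP and TGF-beta or 14 Wnt genes passed a 4-fold range. Ihh, the hedgehog ligand of the growth plate, had 11.6, 13.5, 26 and 15.5 CPM, or 6.76 CPM per kb, and Shh, the ligand of notochord and floor plate, 0.938, 1.40, 0.939 and 0.995 CPM, or 0.375 CPM per kb. The receptor Ptch1, itself a hedgehog target, had 12.6, 19.1, 33.8 and 25.2 CPM and the transducer Smo 60.6, 59.4, 89.2 and 82.5 CPM. The BMP receptor Bmpr1a had 148, 208, 104 and 91.8 CPM and the TGF-beta receptor Tgfbr2 94.9, 70.2, 104 and 124 CPM. Beta-catenin (Ctnnb1), the effector of Wnt signalling, had 705, 777, 744 and 675 CPM, the secreted Wnt antagonist Frzb 55.4, 74.5, 66.6 and 39.7 CPM and the Wnt co-receptor Lrp5 42.5, 20.8, 62.9 and 78.0 CPM. Mouse orthologues of genes associated with idiopathic scoliosis were all at 1 CPM or more in every library (13 of 13), with a median range of 1.65-fold. Fbn1 and Fbn2, the fibrillins of elastic fibres, had 272, 183, 177 and 129 CPM, and 122, 108, 127 and 76.7 CPM, and the planar polarity receptor Ptk7 had 46.1, 28.8, 82.7 and 65.0 CPM.

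Among imprinted growth genes other than H19 and Igf2, the Notch-like protein Dlk1 had 897, 489, 1573 and 1724 CPM and the cell cycle inhibitor Cdkn1c 1380, 816, 1376 and 1048 CPM. None of the 11 passed 4-fold. Immediate early genes, which respond within minutes to handling, had a median range of 1.73-fold and sums of 177, 143, 191 and 252 CPM. Jun had 52.3, 46.1, 54.0 and 68.1 CPM, Btg2 27.4, 20.6, 31.7 and 40.7 CPM and Egr1 22, 15.5, 22.5 and 30.3 CPM. Female WT 2 was highest and male WT 2 lowest for all 3. Of the proliferation genes, Mki67 had 191, 180, 128 and 94.9 CPM and Top2a 95, 82.7, 148 and 112 CPM, so that the males were higher for the first and the females for the second. Over the 12 cell cycle genes, both females lay above both males for 7 and both males above both females for 3, beside 34.3% each over all genes. When scaled by total counts these were 9 and 1.

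**Figure D4:**
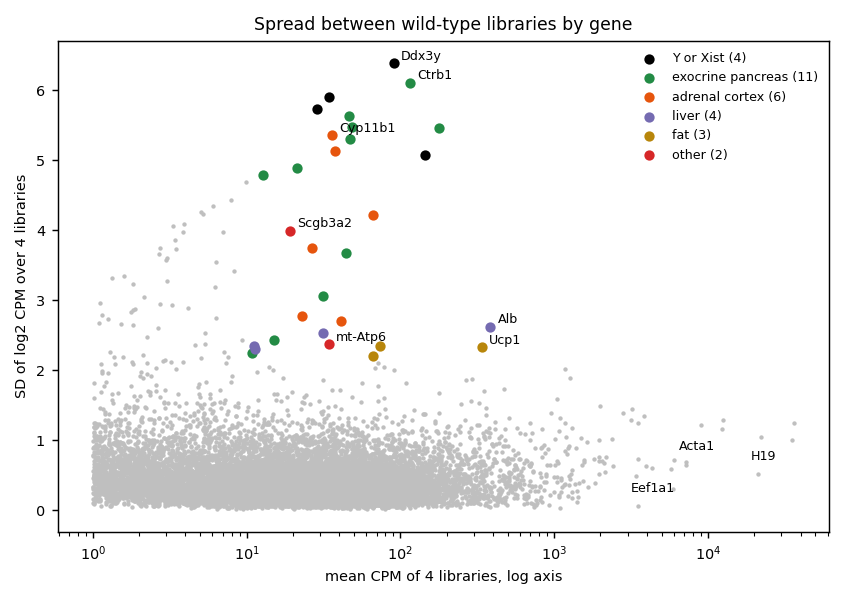
SD of log2 CPM over the 4 wild-type libraries against mean CPM (log axis) for 15152 genes; colours mark the 30 named genes with the largest SD at a mean of 10 CPM or more, by the tissue they are known from. Exocrine pancreas (11 genes), adrenal cortex (6), Y or Xist (4), liver (4) and fat (3) make up 28 of the 30, and Eef1a1 lies near the bottom at an SD of 0.06.

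The 30 named genes with the largest spread between the WT libraries came largely from the groups above. Genes were ranked by the SD of log2 CPM among those with a mean of 10 CPM or more. Of the first 30, 11 encode pancreatic enzymes or cofactors, 6 belong to adrenal steroid synthesis, 4 are sex-linked, 4 are secreted liver proteins and 3 belong to fat. This sorting by tissue was made after the values were seen. They also include Prss1, Cela1, Cela3b, Cel, Cpa1 and Cpb1 (pancreas), Akr1b7, Hsd3b1 and Cyp11a1 (adrenal), Fgg, Apoh and Gc (liver) and Cfd (fat). The other 2 were Scgb3a2, a secretoglobin of the airway, with 7.09, 68.1, 1.09 and 0.0538 CPM, and mt-Atp6, with 6.78, 91.2, 2.31 and 36.8 CPM.

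Over all genes, 963 passed a 4-fold range, 119 a 16-fold range, and 5074 (33.5%) stayed below 1.5-fold. Only 113 of the 963 belonged to any list read here. In 353 of the 963 male WT 2 was highest and female WT 2 lowest, and in 210 female WT 2 was highest and male WT 2 lowest, so that this pair of libraries set the range of most of them. Both males lay above both females in 597 (62.0%) and both females above both males in 109 (11.3%), against 34.3% each over all genes. Without male WT 2 the count was 473 and without female WT 2 it was 531. The count was 472 after a correction of each library for transcript GC content.

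The most constant genes with a mean of 50 CPM or more were Csnk2a1 (a catalytic subunit of casein kinase), Ttl (tubulin tyrosine ligase), Fads1 (a fatty acid desaturase), Ncor1 (a nuclear co-repressor), Smurf2 (a ubiquitin ligase), Npdc1, Rpl4, Iqsec1, Trappc3 and Xrn2. Csnk2a1 had 79.2, 79.0, 80.0 and 77.5 CPM, a 1.03-fold range. Its log2 range was 0.05, and 0.59 after the transcript GC correction described below, which left ranges of 0.13 for Ncor1 to 0.60 for Xrn2 among these 10. Rpl4, of the large ribosomal subunit, had 1068, 1078, 1091 and 1126 CPM. Of genes often used as a reference, Tbp had 21.1, 20.5, 17.3 and 16.3 CPM, Ywhaz 222, 198, 179 and 171 CPM, Actb 1358, 1071, 1590 and 1619 CPM and B2m 413, 253, 125 and 160 CPM. The ranges were 1.30-fold for Tbp and Ywhaz, 1.51-fold for Actb and 3.31-fold for B2m. Gapdh, which has many processed copies in the genome and is therefore uncertain here, had 58.0, 35.4, 51.3 and 73.9 CPM.

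Sex is the only factor that the labels give within the WT libraries. The Y-linked and X-inactivation genes followed the labels. Ddx3y had 132, 231, 0 and 0.108 CPM, Eif2s3y 68.9, 69.1, 0.0218 and 0 CPM, Uty 47.8, 67.5, 0 and 0.0269 CPM and Kdm5d 19.7, 20.1, 0.0218 and 0.0269 CPM. Xist, the RNA that silences an X chromosome in females (Entrez gene 213742, chromosome X, 103460373 to 103483233), had 0.265, 1.63, 286 and 288 CPM. In edgeR's quasi-likelihood test of the 4 libraries (2 residual degrees of freedom, 17295 genes) the adjusted p was 0.00131 for Eif2s3y and Kdm5d, 0.00326 for Uty, 0.0217 for Ddx3y and 0.0275 for Xist. The 72 counts of Xist in male WT 2 and 11 in male WT 1 compare with 13115 in female WT 1 and 10705 in female WT 2.

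In all, 1860 of 17295 genes (10.8%; the count includes the sex-linked genes) passed an adjusted p of 0.05 in that test, 430 higher in females (2.49%) and 1430 higher in males (8.27%), and the unadjusted p was under 0.05 for 6199. When only total counts were used for scaling, the split was 3248 higher in females and 1042 higher in males, since the median log2 difference of all genes moved from -0.02 to 0.30. Leaving out male WT 1 gave 0 calls in edgeR, with an unadjusted p under 0.05 for 6211 genes, and leaving out male WT 2 gave 0, with 3916. DESeq2 on all 4 WT libraries gave 4103. With all 8 libraries of the series in the fit it was 1, Kdm5d.

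The sex difference followed the base composition of the transcript. Across 15907 tested genes with a transcript sequence, which are not independent replicates, the log2 difference of females minus males had a Spearman correlation of 0.552 with GC content and 0.067 with length. In the tenth of genes lowest in GC (median 40.6%) the median difference was -1.02, and 652 of 1592 genes passed as higher in males and 4 as higher in females. In the tenth highest in GC (median 60.1%) the median was 0.43, with 93 passing as higher in females and 2 as higher in males. The median GC content was 42.3% for genes called higher in males, 55.5% for genes called higher in females and 50.7% for all. After each library was corrected for this trend, 4 of 15907 genes passed (0.0251%), the Y-linked Ddx3y, Eif2s3y, Kdm5d and Uty, and the adjusted p of Xist was 0.0592. The unadjusted p was then under 0.05 for 4143 genes.

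**Figure D5:**
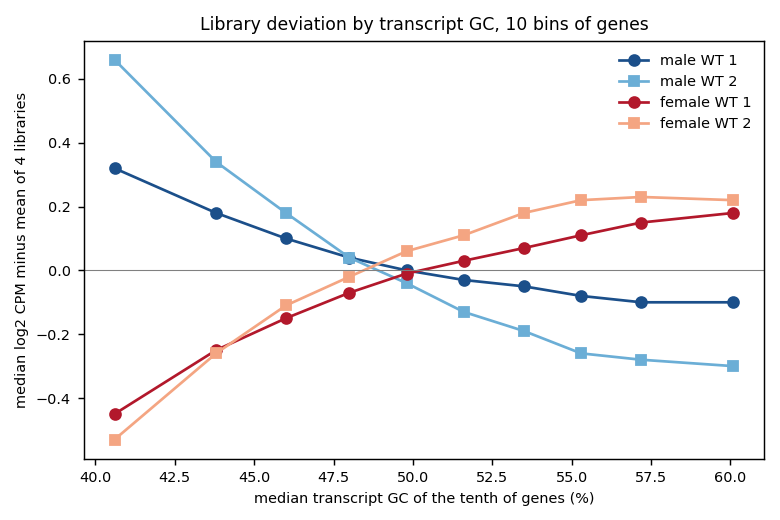
Median deviation of log2 CPM from the mean of the 4 wild-type libraries (vertical axis) in 10 bins of genes by transcript GC content (horizontal axis, percent); each line is 1 library. Both males fall with GC, male WT 2 from 0.66 to -0.30, and both females rise, female WT 2 from -0.53 to 0.22.

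Several groups described above held genes that passed the sex test before that correction, and apart from the Y-linked list no member of a nuclear list passed after it. These counts stand beside 8.27% of all tested genes called higher in males and 2.49% called higher in females. Higher in males were 6 of the 10 hepatocyte genes, with Alb at -4.06 (log2, females minus males, SE 0.65, edgeR adjusted p = 0.0319) and Apob at -3.83 (SE 0.54, adjusted p = 0.0300). So were 4 of 12 neuron genes (Map2, Snap25, Syt1 and Elavl4), 3 of 8 astrocyte and radial glia genes (Fabp7, Aqp4 and Gfap), 2 of 12 annulus and tendon genes (Ogn and Lum), 2 of 30 skeletal muscle genes (Ttn and Neb), 1 of 14 osteoblast genes (Omd), 1 of 20 cartilage genes (Prg4) and 1 of 12 neutrophil genes (S100a8). Higher in females were 4 of 8 myogenic regulators, with Pax7 at 2.17 (SE 0.36, edgeR adjusted p = 0.0323) and Myod1 at 1.61 (SE 0.31, adjusted p = 0.0377), besides Mymk and Mymx, and 4 of 12 cell cycle genes (Mcm2, Mcm5, Plk1 and Aurkb). Other lists also held such genes, and not all are given here. Among them, 2 of 10 neuromuscular junction genes were higher in females. Higher in males were 2 of 6 tested lung and airway genes, 2 of 12 sensory neuron genes and 2 of 15 BMP and TGF-beta genes. The Schwann cell and oligodendrocyte list had 2 of 12 higher in males and 1 higher in females. Of the X-linked genes known to escape inactivation, Kdm5c (43.6, 32.8, 92.3 and 104 CPM, edgeR adjusted p = 0.0315) and Eif2s3x (24.9, 35.5, 60.1 and 61.0 CPM, adjusted p = 0.0473) were higher in females, while Kdm6a (22.5, 26.5, 29.7 and 29.1 CPM) and Ddx3x (356, 513, 309 and 326 CPM) did not pass. After the correction the smallest adjusted p among all genes other than the Y-linked 4 was 0.0592. Not passing does not mean that the difference was gone, and its size changed unequally. In examples picked after the values were seen, the log2 difference was -3.9 after the correction for Alb. It went from -2.2 to -1.98 for Rps24, from -1.75 to -1.3 for Postn and from -2.39 to -1.24 for Tceal7.

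Leaving aside the Y-linked genes, mitochondrial genes and gene models without a proper name, the 10 genes with the smallest p were all higher in males: Rgn, Fgg, Cyp2c68, Zfp51, Trdn, Polr2k, Serpinb1b, Slc10a1, Cyp3a11 and Snapc5, each with an adjusted p of 0.0275. Rgn, a calcium-binding protein of liver, had 12.8, 11.6, 0.590 and 0.296 CPM, and Fgg, the gamma chain of fibrinogen, had 76.2, 44.2, 3.23 and 2.45 CPM. Slc10a1, the bile acid transporter of hepatocytes, had 3.22, 2.74, 0.109 and 0.0538 CPM. Trdn, triadin of the muscle calcium release unit, had 605, 520, 88.3 and 91.4 CPM and Polr2k, a small subunit shared by RNA polymerases, 116, 132, 29.2 and 30.6 CPM. The transcripts of the 10 genes had GC contents of 38.4% to 47.7%, all below the median of 50.7%. The log2 difference (females minus males) before and after the GC correction was -4.75 and -3.99 for Rgn and -4.4 and -4.0 for Fgg. For Slc10a1 it was -5.11 and -4.97, for Trdn -2.65 and -1.54 and for Polr2k -2.05 and -0.82. The part of GC content in the difference of any 1 gene was not tested.

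Of 90 tested cytosolic ribosomal protein genes, 12 passed as higher in males and 0 as higher in females, beside 8.27% and 2.49% of all genes. Their median log2 difference was -0.06, and the direction depended on the scaling: both males lay above both females in 36 and both females above in 25, but in 26 and 43 with total counts only. Rps24 had a log2 difference of -2.20 (SE 0.35, edgeR adjusted p = 0.0320), whereas Rplp0, at 1238, 1426, 2010 and 1930 CPM, was higher in both females and did not pass. Of 15 genes of the mitochondrial genome, 7 passed as higher in males, among them mt-Nd4 (17844, 22843, 3578 and 5617 CPM, edgeR adjusted p = 0.0448) and mt-Nd5 (15604, 13637, 3114 and 3796 CPM, adjusted p = 0.0385). mt-Cytb had 54064, 64053, 11268 and 16412 CPM and mt-Co1 58841, 48174, 13994 and 19151 CPM, and neither passed (adjusted p = 0.0572 and 0.0791). Several mitochondrial genes, such as mt-Atp6 and mt-Co2, have near-identical nuclear copies and their low levels are uncertain. The mitochondrial genes have a median GC content of 37.1% and were not part of the GC-corrected fit.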

How the data were processed

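Polyadenylated RNA of whole E18.5 spines was sequenced, and the deposited table of raw read counts per gene was used, as made by the authors; the submitters' processing notes name FastQC 1.0.0, MultiQC 1.0.0, HISAT2, featureCounts and mm10, and none of the sources used here gives the annotation, strand setting or treatment of ambiguous reads. Columns were matched to the labels by sex, genotype and replicate number. Of 27179 Entrez identifiers, 25275 were named from RefSeq GRCm38.p6 and 18 from GENCODE, and 1886 stayed unnamed (0.541% to 1.49% of counts).

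CPM is counts scaled by TMM factors to a common library size (edgeR 4.0.16, R 4.3.3), log2 CPM has a prior count of 2, and levels per kilobase use the median transcript length. Ranges were read for genes with a mean of 1 CPM or more. The sexes were compared with edgeR's quasi-likelihood test (minimum count 10, Benjamini-Hochberg adjusted p of 0.05). DESeq2 1.42.0, limma 3.58.1 with voom, other scalings, filters, left-out libraries, a replicate block and a per-library lowess correction for transcript GC (span 0.3, added after seeing the data) were alternatives.

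The lists and all choices were made with earlier results of these data known. The genes named are the 25 highest by CPM, the next 10 per kilobase, the 30 most and 10 least variable, up to 4 leading members, the widest member and members at 0 of each list, Pax1 and its neighbours, and for sex Xist, the Y-linked and escape genes and the 10 with the smallest p. Some genes that this rule selects are not reported here. Other list members named were picked after their values were seen.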

Additional observations from a re-analysis of the deposited data

Results flagged for a closer look

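For 61 lists and 72 genes, the gap of the most extreme library to its neighbour was divided by the range of the 4 libraries and set against the 95% critical value of Dixon. In all 13 passed, 12 of them genes. For normally distributed values of lists and genes not chosen for their spread, chance passes it in about 1 of 20 groups. The ratio was taken on CPM without a log, so the rate may differ here. That rate does not apply to most of the genes that passed, since they were taken from the 30 most variable between these same libraries, and their values are given as a description. Of the 13, 11 are the exocrine pancreas list (2195 CPM in female WT 1) and 10 genes of pancreatic enzymes or cofactors, whose values are not independent of each other. In female WT 1 their levels were 707 CPM for Pnliprp1, 459 CPM for Ctrb1, 192 CPM for Cela2a, 188 CPM for Clps, 185 CPM for Cel, 172 CPM for Cpa1, 120 CPM for Cpb1, 85.3 CPM for Cela3b, 50.6 CPM for Prss1 and 37.3 CPM for Cela1. Scgb3a2 stood apart in male WT 2 at 68.1 CPM, and Mylpf in male WT 1 at 11160 CPM.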

How the results depend on the processing

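Counts of genes differing by sex moved most: 1860 became 4290 with total counts only, 4103 with DESeq2, 1 with all 8 libraries and 4 after the GC correction, while leaving out 1 library gave 0 to 1880 (831 without female WT 2). The deviation of replicate 1 from the mean of its sex had a correlation of -0.42 between the sexes over genes. With 2 libraries a sex, this value cannot show whether the samples were paired. With the replicate block, which left 1 residual degree of freedom, 13 genes passed. Crossed replicate numbers, a setting that was not planned, gave 7475, and no conclusion is drawn from it. Genes past a 4-fold range numbered 963, and 495 at a mean of 10 CPM, 472 after GC correction and 473 to 838 with 1 library left out (531 without female WT 2). The median SD of log2 CPM was 0.35, or 0.409 with total counts, 0.288 after GC correction and 0.294 to 0.375 with 1 library left out. The count of genes at 1 CPM in all 4 libraries stayed at 14368 to 14543. The cause of these shifts was not tested. With 2 libraries a sex and 2 residual degrees of freedom, small differences could not be detected.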

Other observations

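Lars2, a mitochondrial leucyl-tRNA synthetase picked after its values were seen, had 147, 494, 1526 and 2880 CPM in male WT 1, male WT 2, female WT 1 and female WT 2. It was higher in both females, whereas the summed transcripts of the mitochondrial genome were higher in both males. Any link between them was not tested.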
